A study of Homo sapiens with 14 samples.

Results

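The genes described here are 34 listed genes of the ATF4 program and of the unfolded protein response, the 2 linked stress programs that adjust amino acid supply and protein folding. They were taken by symbol from an expression array. A gene counted as measured if a probe set carried its symbol and no other, and the brightest such probe set stood for it. All 34 of 34 were measured, out of 18372 genes in all. They were separated into an ATF4 arm of 17 genes (11 transcription factors and stress regulators, 6 enzymes of serine, one-carbon and asparagine synthesis) and an endoplasmic reticulum (ER) arm of 17 genes (4 sensors and transcription factors, 9 chaperones and folding enzymes, 4 genes of ER-associated degradation).

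When a cell lacks amino acids or accumulates unfolded protein in the ER, sensor kinases phosphorylate the translation factor eIF2 and the transcription factor ATF4 is made, which switches on genes for amino acid synthesis, tRNA charging and stress control. Unfolded protein also activates the ER sensors IRE1 (encoded by ERN1), PERK (EIF2AK3) and ATF6. IRE1 splices the XBP1 transcript and ATF6 is cut into a transcription factor, and together they raise chaperones and degradation factors of the ER. Much of this control acts on translation, splicing or protein cleavage, which an array of total transcript does not measure.

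The series profiled 7 established human prostate cancer cell lines, each on 2 arrays from different passages. All lines grew in the same serum-supplemented DMEM, with no stress treatment named. PC3, a line from a bone metastasis, is the source of the sublines PC3-N and PC3-ML. PC3-ML (Clone 1) and PC3-ML (Clone 3), below Clone 1 and Clone 3, each descend from 1 PC3-ML cell. DU-145 is a line from a brain metastasis. Platelet-derived growth factor receptor alpha is overexpressed in DU-145 (PDGFRα), derived from DU-145, and in PC3-N(PDGFRα), derived from PC3-N. The sources used here do not give how the receptor was introduced or whether those lines are clones. The labels call PC3-ML, both clones and PC3-N(PDGFRα) bone metastatic. They call both DU-145 lines and PC3-N not bone metastatic.

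Values are RMA intensities on a linear scale, with array medians of 29.9 to 31.6, and differences are on the log2 scale. Replicate arrays correlated across genes at 0.9891 to 0.9959, and the small number of arrays limits the precision. PDGFRA, the overexpressed gene, read 106.4 ± 4.32 (SD, n = 2) before and 833.9 ± 23.3 after overexpression in the PC3-N background, and 26.9 ± 1.92 before and 110.9 ± 26.4 after it in the DU-145 background. The epithelial markers EPCAM (line means 453.7 to 1635), KRT8 (213.6 to 669.4) and KRT18 (58.6 to 254.8) were detected in every line. CDH1 was at 25.9 to 31.7 in the PC3 lines and 53.4 to 165.9 in the DU-145 lines, and the prostate secretory genes KLK2 and KLK3 were near the floor at 25.7 to 32.2.

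Promoters of the members were searched for elements known for the 2 arms, because the members' patterns can then be set beside the letters they carry. Such elements are known from genes of these same pathways. Their share among the members, set beside that of all promoters, is therefore a description and not a test. The sequences are RefSeq's for build GRCh38.p14 and reach from 250 bases before to 50 after each annotated start, with both strands searched. A promoter was listed for 32 of the 34 members, 15 in the ATF4 arm and 17 in the ER arm. The ER stress element (ERSE), written here as CCAAT then CCACG after a gap of 9 bases, was found in 6 of the 17 ER arm promoters (XBP1, HSPA5, HSP90B1, PDIA6, CALR and CANX) and in 0 of 15 of the ATF4 arm, and in 0.0769% of 35116 promoters. ERSE-II, ATTGG then CCACG after a gap of 1 base, was found in SDF2L1 and HERPUD1 and in 0.0541% of promoters. The composite site of ATF4 and C/EBP factors (CARE), TGATGNAA, was found in ATF3, CEBPG, CHAC1 and ASNS of the ATF4 arm, in HERPUD1 of the ER arm and in 3.62% of promoters. TGACGTGG, the UPR element, was in 0 members and in 0.729% of promoters. A member counts once over all its promoters, and over 27305 genes counted that way the shares were 0.0916% for ERSE, 0.0696% for ERSE-II, 4.46% for CARE and 0.927% for the UPR element. Capitals below mark the element, on either strand, and for HERPUD1 both the CARE and the ERSE-II. The first 3 sequences show ERSE copies before genes that differed in their pattern over the lines, and the last 2 show CARE copies of the ATF4 arm.

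HSPA5, chr9:125241376-125241424 (minus strand), ERSE: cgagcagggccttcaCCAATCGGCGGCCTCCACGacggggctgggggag
CALR, chr19:12938369-12938417 (plus strand), ERSE: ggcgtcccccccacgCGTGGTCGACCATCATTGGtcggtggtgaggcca
XBP1, chr22:28800588-28800636 (minus strand), ERSE: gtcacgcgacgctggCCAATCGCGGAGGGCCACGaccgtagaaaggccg
HERPUD1, chr16:56931951-56932050 (plus strand), CARE and ERSE-II: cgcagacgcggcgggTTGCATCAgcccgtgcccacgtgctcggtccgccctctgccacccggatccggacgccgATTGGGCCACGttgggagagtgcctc
ASNS, chr7:97872454-97872491 (minus strand), CARE: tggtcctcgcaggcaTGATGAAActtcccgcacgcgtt
CEBPG, chr19:33374056-33374093 (plus strand), CARE: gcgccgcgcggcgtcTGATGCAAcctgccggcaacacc

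The HSPA5 stretch ends 33 bases before the start, the XBP1 stretch 19 and the CALR stretch 192. These matches are letters in a window and say nothing about binding.

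Across the 7 lines the ER arm varied more than the ATF4 arm at its median, while the widest ranges belonged to a few ATF4 arm genes. The difference between the highest and lowest line mean had a median of 0.40 in the ATF4 arm, 0.68 in the ER arm and 0.31 over all genes. The arms also differed in brightness, with median intensities of 57.3, 116.5 and 36.8, and dim genes have compressed ranges. The part of brightness was not tested. The span reached 1 in 5 of the 34 members, against 11.8% of all genes. These were VLDLR (3.08), SHMT2 (1.92), PSAT1 (1.89) and DDIT4 (1.66) of the ATF4 arm and ATF6 (1.48) of the ER arm. CALR, at 0.998, lay just under that limit, and SESN2, a leucine-sensing brake on growth signalling, had the smallest range (0.12). With limma's F test over the 7 lines, 16 of the 34 were called at an adjusted p under 0.05, against 38.0% of all genes. They were 6 of 17 in the ATF4 arm (ATF5, CEBPG, DDIT4, VLDLR, PSAT1 and SHMT2) and 10 of 17 in the ER arm (ATF6, HSPA5, HSP90B1, DNAJB9, PDIA4, CALR, CANX, SEL1L, EDEM1 and SYVN1). Without Clone 3 replicate 2 the count was 9, against 34.6%. In a bulk RNA sample fewer cells of a type and less RNA per cell cannot be told apart.

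**Figure D1:**
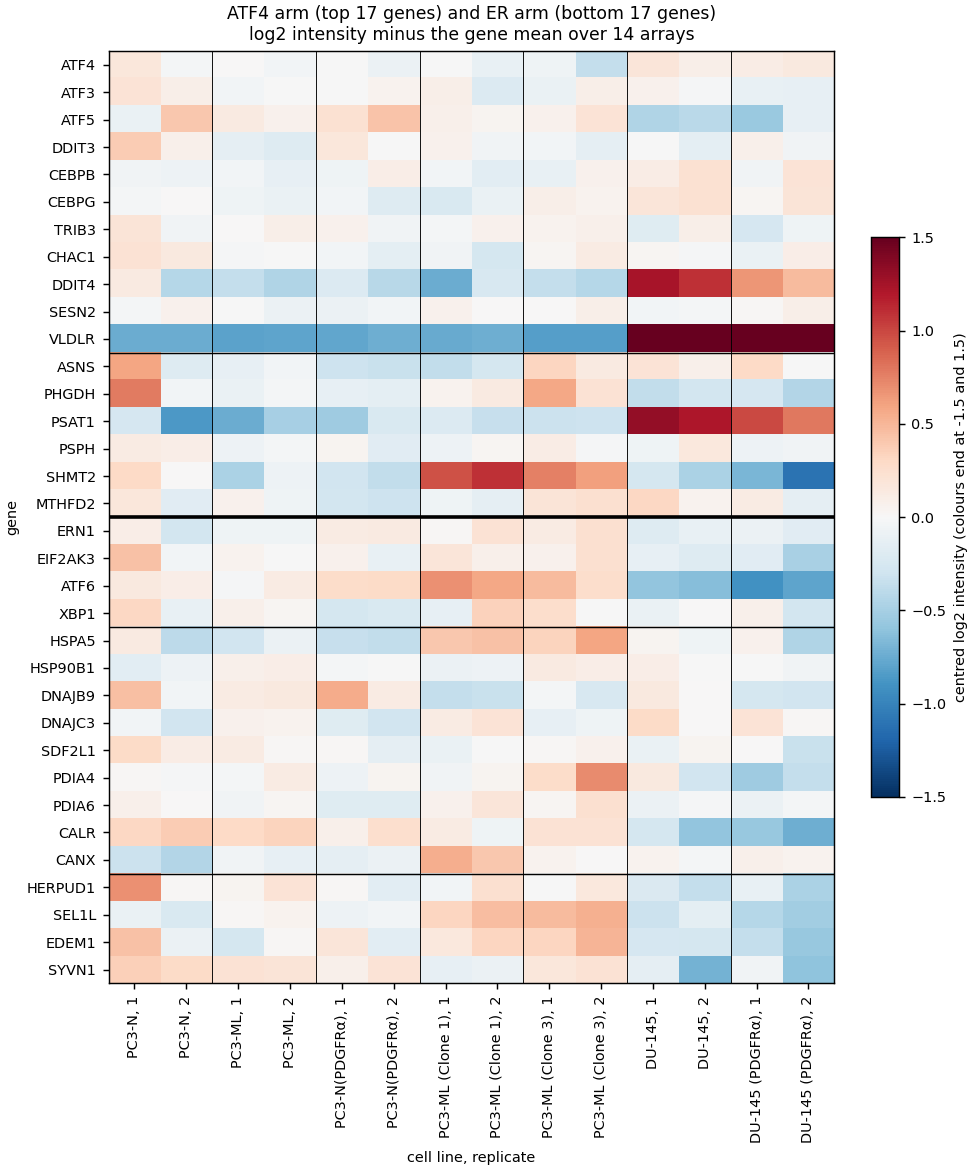
Heat map of log2 intensity minus the gene's mean over 14 arrays, for the 34 genes (rows, ATF4 arm above the thick line) on each array (columns, 2 per line); colours end at -1.5 and 1.5. VLDLR, DDIT4 and PSAT1 are high on the 4 DU-145 arrays, SHMT2 on the 4 clone arrays, and ATF6 is low on the DU-145 arrays.

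Of the central regulators of the ATF4 arm, ATF4, DDIT3 and TRIB3 were not called by the F test. ATF4 itself read 60.2 and 61.9 in DU-145 (PDGFRα), 63.2 and 59.5 in DU-145, 62.7 and 54.5 in PC3-N, 55.8 and 52.6 in PC3-N(PDGFRα), 56.0 and 54.2 in PC3-ML, 55.5 and 51.5 in Clone 1 and 53.4 and 43.7 in Clone 3. The line means spanned 0.35, close to the median of all genes, with an F test adjusted p of 0.124. DDIT3, which encodes the pro-apoptotic factor CHOP, read 85.8 and 69.4 in PC3-N, 73.9 and 65.6 in PC3-N(PDGFRα), 69.1 and 63.2 in DU-145 (PDGFRα), 65.4 and 59.3 in DU-145, 68.5 and 63.4 in Clone 1, 59.7 and 57.3 in PC3-ML and 63.6 and 60.1 in Clone 3. PC3-N held its highest array, and its 2 arrays overlapped those of PC3-N(PDGFRα) (F test adjusted p = 0.122). TRIB3, a pseudokinase that restrains ATF4 output, read 42.7 and 36.0 in PC3-N, 38.8 and 39.5 in Clone 3, 37.5 and 39.6 in PC3-ML, 36.5 and 38.9 in Clone 1, 39.2 and 36.0 in PC3-N(PDGFRα), 31.3 and 35.8 in DU-145 (PDGFRα) and 33.0 and 39.8 in DU-145. Its lines had no order beyond the spread of passages (F test adjusted p = 0.593).

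The other regulators with narrow ranges were ATF3 (25.7 to 33.9 over the arrays), a repressor induced by stress, CHAC1 (28.1 to 39.2), which degrades glutathione, SESN2 (23.4 to 26.6) and CEBPB (37.6 to 49.3), a bZIP factor. The means of ATF3, CHAC1 and SESN2 lay below the median of all genes (36.8), where intensities are compressed toward a floor and a difference is a low estimate. CEBPG, a bZIP partner of ATF4, was called by the F test (adjusted p = 0.0164), with line means from 91.4 in Clone 1 to 118.0 in DU-145. ATF5, a bZIP factor whose translation is controlled like that of ATF4, was also called (adjusted p = 0.0289), with line means from 89.0 in DU-145 to 150.5 in PC3-N(PDGFRα).

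Among the biosynthetic enzymes, ASNS, asparagine synthetase, read 138.9 and 80.6 in PC3-N, 116.0 and 101.4 in Clone 3, 114.0 and 92.4 in DU-145 (PDGFRα), 106.7 and 97.4 in DU-145, 85.0 and 90.1 in PC3-ML, 71.3 and 76.9 in Clone 1 and 74.5 and 73.3 in PC3-N(PDGFRα). Its largest gap lay between the 2 passages of PC3-N, and the F test did not call it (adjusted p = 0.156). PHGDH, which opens serine synthesis, likewise read 98.1 and 55.5 in PC3-N and 42.2 to 86.0 elsewhere. PSPH, the last step of serine synthesis, was flat at 98.4 to 123.7 on the probe set used. MTHFD2, a mitochondrial folate enzyme, lay between 271.3 and 419.2 and was not called (F test adjusted p = 0.0813). PSPH and MTHFD2 each had a second probe set, which was not used. That of PSPH was dimmer and not flat, at 26.1 to 59.5 over the arrays, with 47.3 and 59.5 in Clone 3.

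In the ER arm, the sensors ERN1 (47.0 to 67.2 over the arrays, F test adjusted p = 0.119) and EIF2AK3 (40.6 to 77.1, adjusted p = 0.122) were not called by the F test, while ATF6 was (3.52e-06). Among the folding genes, DNAJC3, a BiP co-chaperone and kinase inhibitor (95.2 to 142.5), and SDF2L1, a partner of ER co-chaperones (44.5 to 68.7), were not called, with adjusted p of 0.0556 and 0.259. DNAJB9, another co-chaperone of BiP, was called (up to 112.4 on an array, adjusted p = 0.0389), with its highest line mean in PC3-N(PDGFRα) at 97.8 and its lowest in Clone 1 at 60.3. Of the 17 ER arm genes 8 had their highest line mean in Clone 3 and 8 their lowest in DU-145 (PDGFRα). The share of all genes with these extremes was not counted. In DU-145 (PDGFRα) the ER arm's median deviation from each gene's mean was -0.09 in replicate 1 and -0.36 in replicate 2, beside -0.10 and -0.11 in DU-145.

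The comparison of the 5 PC3 lines with the 2 DU-145 lines asked how the members differ between the cell backgrounds. It gave the most member calls. VLDLR, the very-low-density lipoprotein receptor, PSAT1, the second enzyme of serine synthesis, and DDIT4, an inhibitor of mTORC1, were lower in the PC3 lines. ATF6, CALR, a calcium-binding lectin chaperone, and ATF5 were higher. The test was limma on the 7 line means, so its p-values measure the spread between lines. It counts each line as an independent sample, although 3 of the 5 PC3 lines and 1 of the 2 DU-145 lines derive from another line of the set. Of the 34 members 10 were called, 6 higher and 4 lower, against 17.6% of all genes called, 9.60% higher and 8.02% lower. The ATF4 arm had 1 higher and 4 lower of 17, and the ER arm 5 higher and 0 lower of 17. Median differences were -0.01 in the ATF4 arm, 0.19 in the ER arm and -0.01 over all genes.

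DU-145 gave 219.5 and 171.3 for VLDLR, DU-145 (PDGFRα) gave 130.7 and 118.9, and the 10 PC3 arrays lay at 22.9 to 24.5 (23.0 and 22.9 in Clone 3, 24.2 and 24.4 in Clone 1, 23.7 and 24.5 in PC3-N(PDGFRα), 24.2 on both PC3-N arrays and 23.3 and 23.5 in PC3-ML). The PC3 values lay below the lower quartile of gene means (25.1), so the difference of -2.71 (SE 0.15, adjusted p = 0.000174) is a low estimate. For PSAT1 the DU-145 arrays read 320.9 and 297.9, the DU-145 (PDGFRα) arrays 256.6 and 223.0 and the PC3 arrays 70.7 to 111.6 (-1.51, SE 0.14, adjusted p = 0.00109). The PC3 lines were at 103.1 and 104.1 in Clone 3, 111.6 and 101.3 in Clone 1, 88.8 and 109.8 in PC3-N(PDGFRα), 107.8 and 70.7 in PC3-N and 76.7 and 90.8 in PC3-ML. They had no order beyond the spread of their passages. For DDIT4 these were 111.4 and 101.5, then 74.8 and 65.9, then 28.3 to 52.0 (-1.21, SE 0.16, adjusted p = 0.00469). The PC3 lines read 37.0 and 35.3 in Clone 3, 28.3 and 40.3 in Clone 1, 41.2 and 35.6 in PC3-N(PDGFRα), 52.0 and 35.2 in PC3-N and 37.1 and 34.8 in PC3-ML. For these 3 genes the 4 DU-145 arrays stood above all 10 PC3 arrays, and DU-145 above DU-145 (PDGFRα). CEBPB was lower by a small amount (-0.18, adjusted p = 0.0456), and its call was lost in 17 of 25 alternative settings. ATF4 was at -0.19 (adjusted p = 0.129) and was called lower in the PC3 lines with quantile normalization (-0.27, adjusted p = 0.0277).

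The enzymes on either side of PSAT1 in serine synthesis were not called. PHGDH read 51.8 to 98.1 in the PC3 lines and 42.2 to 48.3 in the DU-145 lines, a difference of 0.47 (SE 0.16, adjusted p = 0.102) with no overlap of the arrays, and PSPH differed by 0.01. SHMT2, the mitochondrial serine hydroxymethyltransferase, was not called either (0.88, SE 0.41, adjusted p = 0.203).

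ATF6 read 290.5 to 470.4 on the PC3 arrays, 155.8 and 169.3 in DU-145 (PDGFRα) and 194.5 and 188.7 in DU-145, a difference of 1.02 (SE 0.16, adjusted p = 0.0082). Its PC3 values were 405.8 and 351.5 in Clone 3, 470.4 and 439.5 in Clone 1, 355.6 and 358.5 in PC3-N(PDGFRα), 324.8 and 313.4 in PC3-N and 290.5 and 317.8 in PC3-ML, with Clone 1 above every other line. CALR read 963.9 to 1320.2 on the PC3 arrays, 680.1 and 610.0 in DU-145 (PDGFRα) and 839.6 and 667.7 in DU-145, a difference of 0.76 (SE 0.10, adjusted p = 0.00458). The groups did not overlap for either gene. ATF5 was higher by 0.54 (adjusted p = 0.00525), also without overlap (111.9 to 160.8 against 81.3 to 110.0). SYVN1, the ubiquitin ligase of ER-associated degradation, was higher by 0.53 (adjusted p = 0.0212). HERPUD1, its ER membrane partner, was higher by 0.41 (adjusted p = 0.0392) and EIF2AK3 by 0.34 (adjusted p = 0.0279). The HERPUD1 call was lost in 13 of 25 alternative settings, and the calls of SYVN1 and EIF2AK3 in 5 each. Quantile normalization was among these settings for HERPUD1 and SYVN1. EDEM1 was not called, but passed with the filter on dim genes (0.50, adjusted p = 0.0356) and with the trended variance prior (adjusted p = 0.0426). It also passed without the PC3-ML line (0.57, adjusted p = 0.0375).

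Arrays of the 2 backgrounds did not overlap for 8 of the 34 members, against 17.5% of all genes. Without the DU-145 line 6 members were called, against 8.54% of all genes, and without DU-145 (PDGFRα) 5, against 6.42%. ATF6 lost its call without DU-145 (PDGFRα) (0.91, adjusted p = 0.0826), and SYVN1, HERPUD1 and EIF2AK3 lost theirs without either DU-145 line (adjusted p up to 0.202). The epithelial markers moved with this comparison. CDH1 was lower in the PC3 lines (-1.56, adjusted p = 0.0263) and the other 3 had differences below 0 without a call, for a median of -0.97. The endothelial marker PECAM1 was higher (1.44, adjusted p = 0.0271), the other 2 endothelial markers were not called, and their part in the result was not tested.

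**Figure D2:**
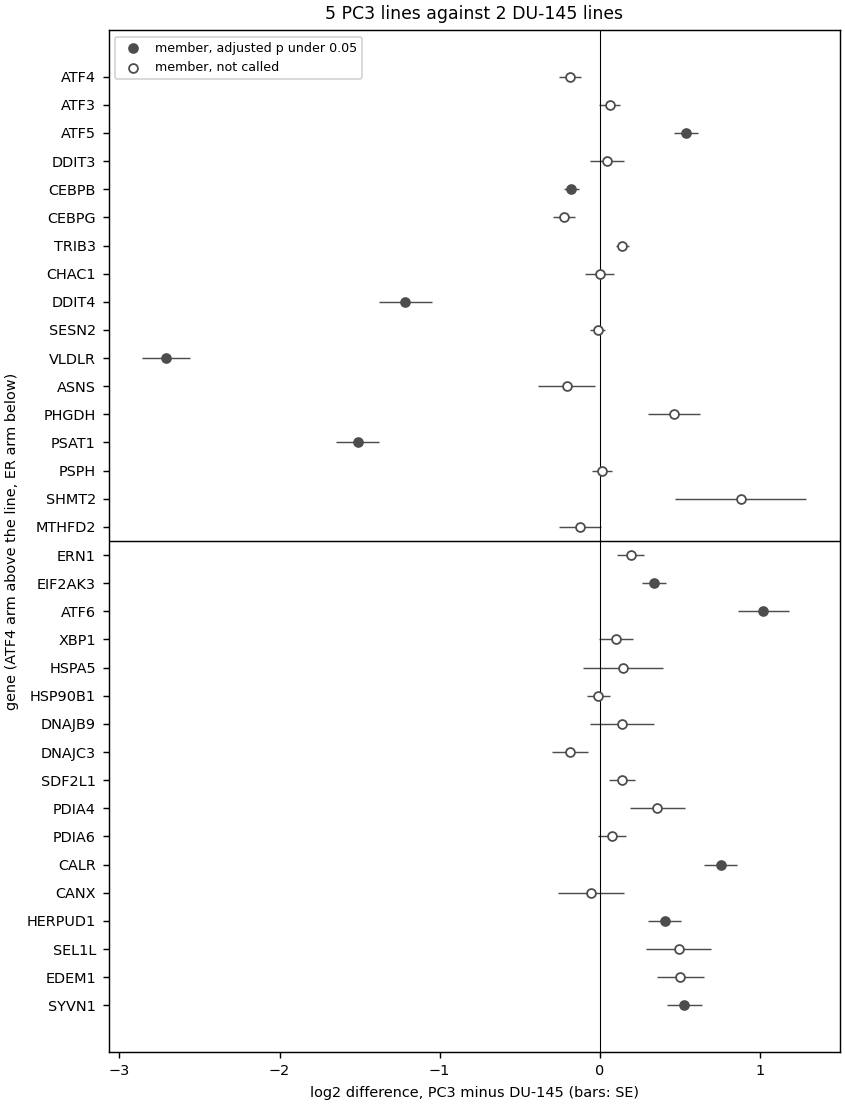
Log2 difference of each member between the 5 PC3 lines and the 2 DU-145 lines (x axis, PC3 minus DU-145, bars SE), with filled points for an adjusted p under 0.05. VLDLR, PSAT1 and DDIT4 lie at -2.71, -1.51 and -1.21, and ATF6 and CALR at 1.02 and 0.76.

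The members whose promoters hold an ERSE did not share 1 pattern over the backgrounds. CALR was called, while HSPA5, the chaperone BiP, differed by 0.15 (adjusted p = 0.747), XBP1 by 0.10, PDIA6, a disulfide isomerase, by 0.08, HSP90B1, the chaperone GRP94, by -0.01 and CANX, the membrane lectin calnexin, by -0.05. Among the CARE genes of the ATF4 arm, ASNS (-0.21), CEBPG (-0.22), ATF3 (0.06) and CHAC1 (adjusted p = 0.997) were not called. In alternative settings CEBPG was called lower with quantile normalization (-0.33, adjusted p = 0.0177) and without the Clone 3 line (-0.25, adjusted p = 0.0364). It was also called without DU-145 (PDGFRα) replicate 1 (-0.26). XBP1 was called higher without the PC3-N(PDGFRα) line (0.17, adjusted p = 0.0434).

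Clone 1 was compared with its parent line PC3-ML to ask what a single-cell derivative changed. SHMT2 rose, as did ATF6, CANX and SEL1L, a scaffold of the degradation complex. SHMT2 read 550.8 and 607.4 in Clone 1, 479.4 and 433.3 in Clone 3, 204.4 and 268.3 in PC3-ML, 348.1 and 284.8 in PC3-N, 232.4 and 218.9 in PC3-N(PDGFRα), 176.6 and 131.9 in DU-145 (PDGFRα) and 236.0 and 204.8 in DU-145. The 4 clone arrays stood above the other 10, and the share of all genes with such a split was not counted. The difference of Clone 1 from PC3-ML was 1.30 (SE 0.17, adjusted p = 0.000874). In all, 4 of the 34 members rose and 0 fell, against 13.8% of all genes called, 9.01% higher and 4.77% lower. The count was 1 of 17 in the ATF4 arm and 3 of 17 in the ER arm, with medians of -0.03 and 0.10 against -0.02 over all genes. Limma's p-values between lines measure the difference against the spread between 2 passages of a line.

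ATF6 rose by 0.58 (SE 0.08, adjusted p = 0.00119), from 290.5 and 317.8 to 470.4 and 439.5. CANX rose by 0.56 (SE 0.07, adjusted p = 0.000629), and read 2314 and 2092 in Clone 1 against 1525 and 1457 in PC3-ML. On all other arrays CANX lay between 1165 and 1675, so Clone 1 stood above every other line. SEL1L rose by 0.36 (SE 0.08, adjusted p = 0.0117), from 190.3 and 195.4 to 235.8 and 260.0, and lost its call without PC3-ML replicate 1, without Clone 1 replicate 2 or with quantile normalization (adjusted p up to 0.106). Values against the direction were -0.48 for DNAJB9 (adjusted p = 0.0844), -0.31 for SYVN1 and -0.29 for CALR (adjusted p = 0.124). DNAJB9 was called lower in 5 of 19 alternative settings (adjusted p 0.0322 to 0.0496 there), and CALR with quantile normalization (-0.41, adjusted p = 0.0401).

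In Clone 3 the comparison with PC3-ML, which shares the PC3-ML arrays, called 3 of the 34 members, all higher, against 8.10% of all genes called, 5.20% higher and 2.90% lower. They were SHMT2 (0.96, SE 0.17, adjusted p = 0.00774), SEL1L (0.47, SE 0.08, adjusted p = 0.00583) and ATF6 (0.31, SE 0.08, adjusted p = 0.039). SEL1L read 263.0 and 272.2 in Clone 3, above the 12 arrays of the other lines. Medians were 0.10 in the ATF4 arm and 0.12 in the ER arm, against -0.01 over all genes. The ATF6 call was lost in 12 of 19 alternative settings (adjusted p 0.0296 to 0.268). Without PC3-ML replicate 1, which leaves 1 array of that line, none of these calls held, with SHMT2 at 0.76. Without Clone 3 replicate 1 the SHMT2 and ATF6 calls were lost. The share of all genes called fell in both settings too. Without either PC3-N array, which only changes the shared spread, the count of members was 5, against 8.51% of all genes.

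HSPA5 was at its highest in the clones. It read 1232 and 1255 in Clone 1, 1173 and 1399 in Clone 3, 760.8 and 870.8 in PC3-ML, 1022 and 705.0 in PC3-N, 728.0 and 720.8 in PC3-N(PDGFRα), 972.9 and 676.7 in DU-145 (PDGFRα) and 952.9 and 887.7 in DU-145. The 4 clone arrays did not overlap the other 10, a split for which the share of all genes was not counted. Against PC3-ML the differences were 0.61 (SE 0.19, adjusted p = 0.0627) in Clone 1 and 0.65 (SE 0.19, adjusted p = 0.0673) in Clone 3, both just outside the threshold. Both passed it in 6 of 19 alternative settings, with an adjusted p of 0.0176 to 0.315 and 0.0181 to 0.344 over all of them.

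XBP1, HERPUD1, DDIT3 and EDEM1 had no call in either clone. For XBP1 the differences from PC3-ML were 0.06 in Clone 1 and 0.08 in Clone 3. XBP1 read 89.9 and 123.5 in Clone 1, 117.2 and 97.2 in Clone 3, 102.6 and 99.9 in PC3-ML, 120.6 and 90.1 in PC3-N, 81.4 and 83.2 in PC3-N(PDGFRα), 102.9 and 80.5 in DU-145 (PDGFRα) and 91.4 and 98.2 in DU-145. The 2 arrays of Clone 1 alone spanned most of the range over all lines. For HERPUD1 the differences were -0.02 and -0.05, for DDIT3 0.17 and 0.08, and for EDEM1, a mannosidase-like degradation factor, 0.37 and 0.55 (adjusted p = 0.0959 in Clone 3). EDEM1 was called in Clone 3 with the filter on dim genes (adjusted p = 0.0327) and without either PC3-N array (adjusted p = 0.0418).

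Epithelial markers moved with Clone 1 too. Of the 4, 3 rose against PC3-ML and 0 fell, at a median of 1.36, and in Clone 3 0 were called at a median of 0.22. PECAM1 rose too, alone of 3 endothelial markers (1.03, adjusted p = 0.0176). PDGFRA averaged 129.8 in PC3-ML, while Clone 1 was at 28.8 and Clone 3 at 127.8. Their part in the results for the clones was not tested.

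**Figure D3:**
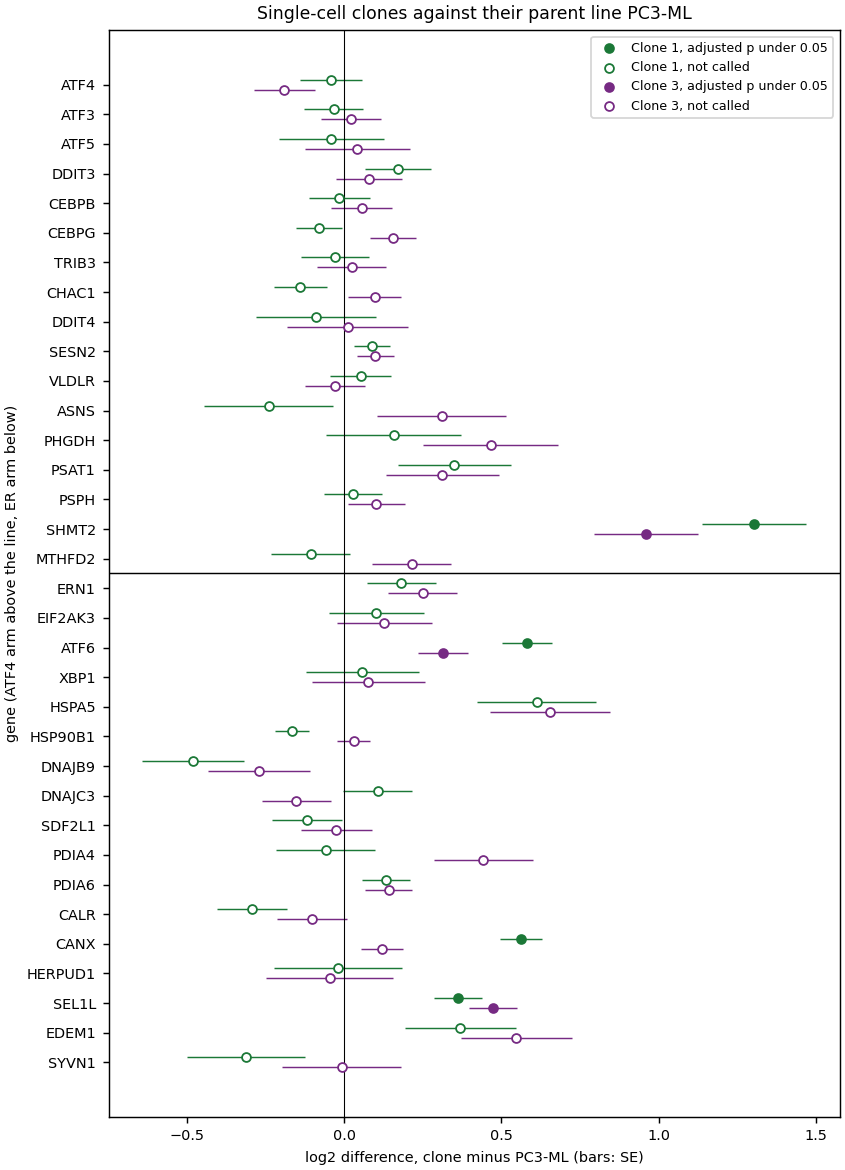
Log2 difference of each member between a clone and PC3-ML (x axis, clone minus parent, bars SE), Clone 1 in green and Clone 3 in purple, with filled points for an adjusted p under 0.05. SHMT2 lies at 1.30 and 0.96, and HSPA5 at 0.61 and 0.65 with open points.

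Clone 1 and Clone 3 were then compared with each other. Here 2 of the 34 members were called, 1 in each direction, against 10.5% of all genes called, 5.85% higher and 4.63% lower in Clone 1. CANX was higher in Clone 1 by 0.44 (SE 0.07, adjusted p = 0.00248). HSP90B1, at 2979 and 2994 in Clone 1 and 3459 and 3380.4 in Clone 3, was lower by a small amount (-0.20, SE 0.05, adjusted p = 0.046), and that call was lost in 16 of 19 alternative settings. SHMT2 (0.34), ATF6 (0.27, adjusted p = 0.0617), HSPA5 (-0.04) and ASNS (-0.55, adjusted p = 0.141) were not called, though ASNS passed with the filter on dim genes (adjusted p = 0.0473) and without either PC3-N array (adjusted p = 0.0112). ATF6 passed without Clone 3 replicate 1 (0.37, adjusted p = 0.0333). PDIA4, a disulfide isomerase, read 586.8 and 787.2 in Clone 3 and 464.5 and 495.8 in Clone 1 (-0.50, adjusted p = 0.0782), and passed in 5 of 19 alternative settings (adjusted p 0.0292 to 0.0425 there). EPCAM (1.85) and KRT8 (0.75) were higher in Clone 1 than in Clone 3, as was PECAM1 (0.89), and their part was not tested.

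**Figure D4:**
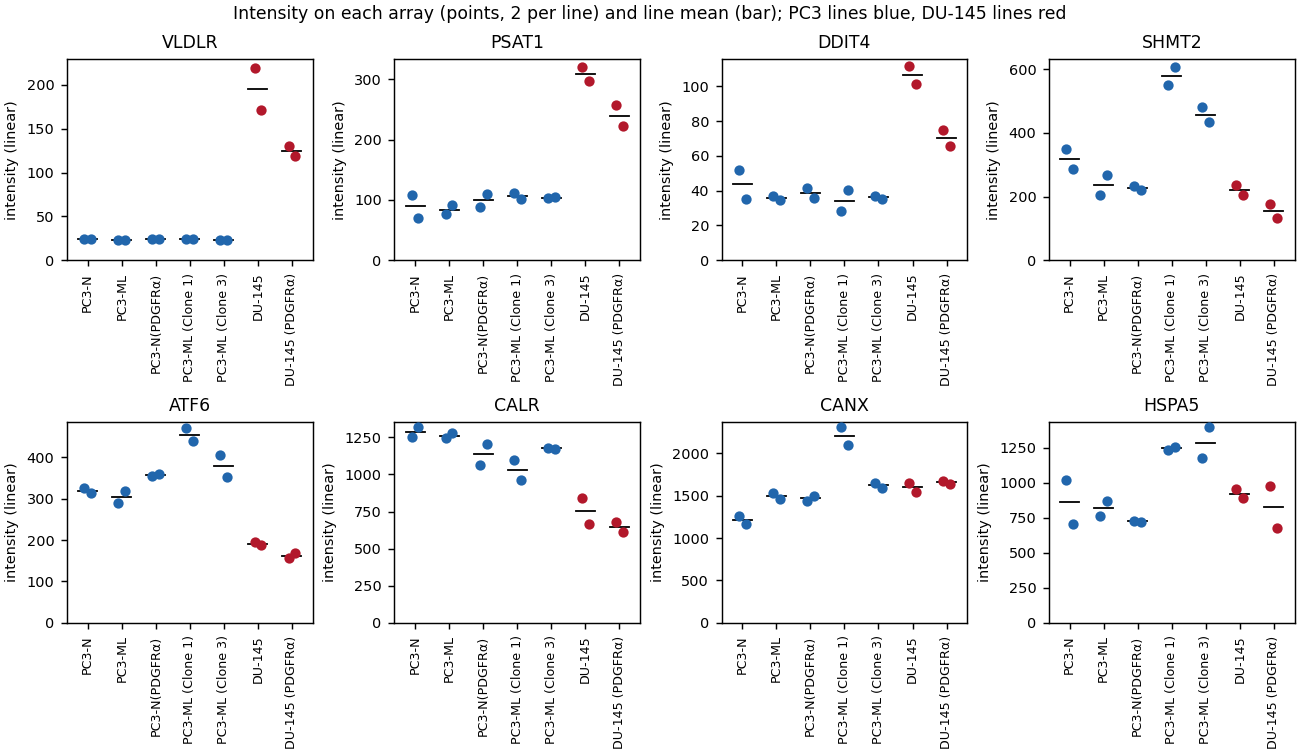
Intensity (linear scale from 0) of 8 members on each array, 2 points per line with a bar at their mean, PC3 lines in blue and DU-145 lines in red. VLDLR is at 22.9 to 24.5 in every PC3 line, SHMT2 and HSPA5 are highest in the clones, and CANX is highest in Clone 1.

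Genes of the same pathways from 3 further lists, which are not members, were also called in the clones. The 19 cytosolic aminoacyl-tRNA synthetases charge tRNAs, and only some are taken as targets of ATF4. In Clone 1, 8 rose and 1 fell, against 9.01% of all genes called higher and 4.77% lower. The largest rises were those of FARSA (1.09), MARS1 (0.97), SARS1 (0.62) and HARS1 (0.59). In Clone 3, 5 rose and 1 fell, with FARSA at 0.90, EPRS1 at 0.65, NARS1 at 0.62 and YARS1 at 0.59, against 5.20% and 2.90%. The clones also differed from each other in 6 of the 19 synthetases. Of these, 2 were higher and 4 lower in Clone 1, against 5.85% and 4.63% of all genes, with RARS1 at 0.95 and TARS1 at -0.82. Of 27 other genes of ER folding, translocation and degradation, 8 rose in Clone 1 and 10 in Clone 3, and 0 fell in either. The disulfide isomerase P4HB rose by 1.30 and 1.44, and the protease MBTPS1, which cuts ATF6, by 0.82 and 0.81. STT3A, of the complex that attaches N-glycans, rose by 0.52 and 0.86, the lectin OS9 by 1.00 in Clone 1 and the mannosidase EDEM3 by 1.07 in Clone 3. Of 27 other genes of the ATF4 and integrated stress response, 5 rose in Clone 1, among them the folate enzyme MTHFD1L (0.64) and the sestrin SESN1 (0.62). In Clone 3 only EIF2AK1, an eIF2 kinase, rose (0.57) among these 27, a share below the 5.20% of all genes.

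Against DU-145 the same lists gave calls on both sides, beside shares over all genes of 9.60% higher and 8.02% lower. Of the 27 stress response genes 7 were higher and 3 lower in the PC3 lines, with the stress regulator NUPR1 at 1.97 and the eIF2 kinase EIF2AK4 at 0.99, KLHL24 at 0.96 and VEGFA at -1.69. Of the 27 ER genes 6 were higher and 1 lower, with the prolyl isomerase PPIB at 1.497, the translocon subunit SEC61A1 at 0.88, the protease MBTPS2 at 0.85 and the oxidase ERO1B at -0.46. Of the 19 synthetases 3 were higher, FARSA (1.45), QARS1 (1.08) and HARS1 (0.77).

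PC3-ML was compared with PC3-N, and PC3-N(PDGFRα) with PC3-N, to ask whether the members follow bone-metastatic sublines of 1 background. None of the 34 were called in either comparison by limma, and 6 and 8 were at an unadjusted p under 0.05, against 10.5% and 13.7% of all genes. Over all genes 0.348% were called in PC3-ML, 0.218% higher and 0.131% lower, and in PC3-N(PDGFRα) 2.20%, 1.52% higher and 0.680% lower. Both share the PC3-N arrays. Medians of the members were -0.07 and -0.13, against medians of all genes near 0. Differences lay below 0 in 27 and 25 of the 34 members, against 52.5% and 51.6% of all genes. The values with the smallest unadjusted p were CANX in both (0.30, adjusted p = 0.116, and 0.27, adjusted p = 0.073), and DDIT3 in PC3-ML (-0.40, adjusted p = 0.181). Among the other lists, STC2, a secreted glycoprotein induced by ER stress, fell in PC3-N(PDGFRα) by 0.97 and RARS1 rose by 0.50. Of the epithelial markers, KRT8 was lower in PC3-ML than in PC3-N (-1.08, adjusted p = 0.0308), and its part was not tested. Of 4 leukocyte markers only CD68 was called, higher in PC3-N(PDGFRα) (158.9 and 153.5) than in PC3-N (94.6 and 103.0). Its part was not tested either.

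The 2 PC3-N passages differed in the 34 members more than the passages of any other line. Replicate 1 was higher than replicate 2 in 29 of the 34 members, at a median difference of 0.19, against 49.2% of all genes and a median near 0. It was higher in 14 of 17 in the ATF4 arm and 15 of 17 in the ER arm, and 8 members differed by more than 0.5, ASNS and PHGDH among them. Of the 19 synthetases 17 were higher in replicate 1 of PC3-N, at a median of 0.28, but passages of PC3-ML differed the other way, with 2 of 19 higher in replicate 1 at a median of -0.06. For the 27 other ER genes these counts were 19 in PC3-N, at a median of 0.10, and 4 in PC3-ML, at -0.13. In the other 6 lines replicate 1 was higher in 13 to 23 of the 34 members, the highest count being that of DU-145 (PDGFRα), at a median of 0.11. Without PC3-N replicate 2, DDIT3 (-0.55, adjusted p = 0.0489) and PHGDH (-0.84, adjusted p = 0.0312) were called lower in PC3-ML, and so were ASNS (-0.91, adjusted p = 0.0112) and PHGDH (-0.91, adjusted p = 0.0143) in PC3-N(PDGFRα). PC3-N then rests on 1 array, the one with the higher values, and the other lines supply the spread, so these calls restate the gap between the passages. What differed between these passages is not given in the labels.

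**Figure D5:**
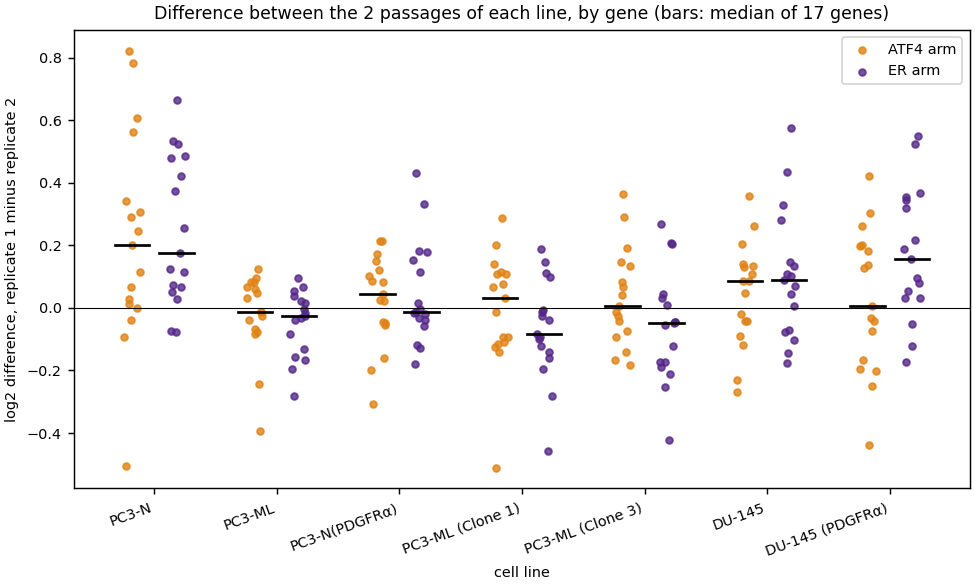
Log2 difference between replicate 1 and replicate 2 of each line (y axis) for the 17 ATF4 arm genes (orange) and 17 ER arm genes (purple), with bars at the median of each arm. PC3-N has medians of 0.20 and 0.18, and in DU-145 (PDGFRα) the ER arm has 0.16.

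Overexpression of the receptor in DU-145 called 1 of the 34 members, lower, against 0.310% of all genes called, 0.0653% higher and 0.245% lower. VLDLR fell by 0.64 (SE 0.10, adjusted p = 0.0405), from 219.5 and 171.3 to 130.7 and 118.9. The call was lost in 12 of 19 alternative settings (adjusted p up to 0.129), among them leaving out DU-145 replicate 1 or either DU-145 (PDGFRα) array. DDIT4 was at -0.60 (adjusted p = 0.221) and SHMT2 at -0.53 (adjusted p = 0.214). Of the 34 members 27 had a difference below 0, at a median of -0.10, against 48.5% of all genes. The same count was reached in PC3-ML against PC3-N, so it is not particular to overexpression. The ER arm of DU-145 (PDGFRα), as a median deviation from each gene's mean over all arrays, was at -0.09 in replicate 1 and -0.36 in replicate 2. The parent DU-145 was at -0.10 and -0.11, so only replicate 2 of DU-145 (PDGFRα) lay below it. Among the other lists ALDH18A1, an enzyme of proline synthesis, fell by 0.77.

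The effects of overexpression in the 2 backgrounds were compared, as PC3-N minus DU-145. Limma called 0 of the 34 members, against 0.533% of all genes, 0.419% higher and 0.114% lower, and 5 were at an unadjusted p under 0.05, against 12.4% of all genes. VLDLR gave 0.63 (SE 0.14, adjusted p = 0.0944). Its level in both PC3-N lines was near the floor, at 23.7 to 24.5, where a fall would not be detectable. Without DU-145 replicate 2 VLDLR was called (0.81, adjusted p = 0.00657). ATF6 gave 0.40 (adjusted p = 0.174). Of 4 leukocyte markers 1 was called higher in this comparison, and its part was not tested.

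The series asks how bone-metastatic lines differ from the others. Limma on the 7 line means called 0 of the 34 members and 0% of all genes, with 6 members at an unadjusted p under 0.05, against 12.2% of all genes. These were ERN1 (0.21), ATF6 (0.78), SEL1L (0.51), ATF4 (-0.19), DDIT4 (-0.92) and VLDLR (-1.82), all with an adjusted p of 0.405. All 4 bone-metastatic lines are PC3 lines and 2 of the 3 others are DU-145 lines. Without PC3-N, the label and the background cannot be told apart, and 9 members were called, against 13.7% of all genes.

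Within the PC3 background only PC3-N is labelled not bone metastatic. Its 2 arrays lay outside the 8 arrays of the bone-metastatic PC3 lines for 4 of the 34 members, against 6.97% of all genes. CANX (1165 and 1263 against 1437 to 2314) and SEL1L (160.9 and 175.5 against 178.5 to 272.2) were lower in PC3-N. SYVN1 (116.8 and 122.5 against 87.6 to 111.4) and CHAC1 (37.4 and 39.2 against 28.1 to 36.7) were higher. With 1 line on one side these are values without a test.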

How the data were processed

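Per the series design each of 7 lines was hybridised in duplicate from different passages (14 arrays). The deposited values are linear intensities that the authors made with RMA, per the submitters' processing notes; the version is not given in the sources used here. They ran from 18.5 to 8654. Of 28829 probe sets, 19291 had 1 gene symbol, 1735 several and 7803 none in the platform annotation used. The probe set with the highest mean stood for a gene with several (682 genes), leaving 18372 genes with no filter on low values.

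Log2 intensities, with no pseudocount, were fitted with limma 3.58.1 (R 4.3.3): a mean per line over 14 arrays with contrasts between lines, and the 7 line means for the comparisons of background and bone-metastatic label. Tests were two-sided, adjusted by Benjamini-Hochberg over 18372 genes, with calls under 0.05. The fit was tested on simulated data. Values on every array are given for members whose line means span at least 1 and for ATF4, DDIT3, ASNS, TRIB3, XBP1 and HSPA5. From each other list up to 4 called genes are named per comparison, by size of change, and up to 6 members in each direction. Genes such as CANX, SEL1L and PDIA4 with other values were chosen after these were seen. Where the clones or a single clone are said to stand above all other lines, the share of all genes doing so was not counted. The members, lists and comparisons were chosen with earlier results of these data known. Alternatives were quantile normalization, a filter on dim genes, the mean of all probe sets, a trended variance prior, the replicate block, and leaving out each array or line. Promoters were read with Python 3.11.15. Some genes of the other lists are not reported here.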

Additional observations from a re-analysis of the deposited data

Results flagged for a closer look

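Within groups of lines of one kind, 68 groups of line means were tested for a line far from the others with Dixon's criterion, and 3 were past it, in 2 genes. Chance alone gives about 1 in 20, so this count is no more than chance gives, and the groups overlap, with PDIA4 past it in both by the same value. PDIA4, a disulfide isomerase of the ER, was higher in Clone 3, at a geometric mean of 679.7 against 478.2 to 500.1 in the other PC3 lines. The gap to the nearest line was 0.873 of the whole range, among the 5 PC3 lines and equally among the 4 bone-metastatic lines. The 2 Clone 3 arrays read 586.8 and 787.2. XBP1 was lower in PC3-N(PDGFRα), at 82.3 against 101.3 to 106.7 in the other PC3 lines (0.799 of the range). Its difference from PC3-N was -0.34 and was not called.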

How the results depend on the processing

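Of 20 calls of single members, 9 held in every alternative: ATF6, CANX and SHMT2 in Clone 1, CANX between the clones, and ATF5, CALR, DDIT4, PSAT1 and VLDLR between the backgrounds. No call changed direction. The share of all genes called also moved between these settings, and the counts of members are to be read beside it. Among the settings without a whole line, 11 members between the backgrounds came with 14.9% of all genes, without PC3-N(PDGFRα). The 9 members by bone-metastatic label came with 13.7%, without PC3-N. Leaving out single arrays or lines moved the count of members called to between 9 and 21 in the F test, which had 16. Against PC3-N it gave 0 to 2 both in PC3-N(PDGFRα) and PC3-ML (0 in the main analysis), and in DU-145 (PDGFRα) 0 to 1 (1). It gave 0 to 1 for the difference between the overexpression effects, 3 to 6 in Clone 1 (4 in the main analysis), 0 to 5 in Clone 3 (3), 1 to 3 between the clones (2), 5 to 11 between the backgrounds (10) and 0 to 9 by bone-metastatic label (0).

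Quantile normalization left 1 call between the clones. Replicate numbers do not pair the samples in 1 direction: over 21 pairs of lines the correlation of replicate differences ran from -0.20 to 0.24, and exceeded 0.1 in 5. Other pairs lay below -0.1. Differences ran together for PC3-ML and Clone 1 (0.22) and opposite for PC3-ML and PC3-N (-0.20). What the passages of different lines share was not tested. The replicate block gave 20 members in the F test, 0 calls in DU-145 (PDGFRα), 5 in Clone 1, 2 in Clone 3 and 1 between the clones, and 0 in the other comparisons of lines. It was not fitted to line means. The shares of all genes called with the replicate block or quantile normalization are not reported here. The causes of these changes were not tested. Where DU-145 (PDGFRα) or DU-145 was left out, a single line stood for its background and was assumed to vary like the others. Intensities near the floor limit VLDLR in the PC3 lines, SESN2, ATF3 and CHAC1.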

Other observations

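SHMT2 lies on chromosome 12 near OS9, an ER lectin of the degradation pathway, and both rose in both clones (OS9 by 1.00 in Clone 1 and 0.61 in Clone 3). The 17 measured genes between them in the RefSeq order were looked at after these values were seen. Of these, 4 rose in Clone 1 and 0 fell (DCTN2 at 1.24, MARS1 at 0.97, PIP4K2C at 0.66 and R3HDM2 at 0.58), and in Clone 3 2 rose (DCTN2 at 0.68 and R3HDM2 at 0.54). The member DDIT3, in the same interval, differed by 0.17 and 0.08 and was not called. Of the 17, 9 had a mean intensity above the median of all genes. Over all genes 9.01% were called higher in Clone 1 and 5.20% in Clone 3.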
